A study of Homo sapiens with 6 samples.

Results

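The genes described here are 32 whose promoters have been reported as methylated in kidney tumours or in inherited kidney cancer syndromes, followed in kidney cancer cells treated with zebularine. Members were chosen by name: all probe sets whose array annotation gives exactly 1 symbol from the list were taken, dim ones included. This gave 44 probe sets for 30 genes, of 19064 probe sets for 11963 genes with 1 symbol on the array. CXCL16 and NKX6-2 had no such probe set and are not analysed here. The cells were A-498, an established human renal cell carcinoma line that lacks functional VHL protein. The untreated group (n = 3) and the zebularine group (n = 3, 1000 µM) were both grown for 120 h in RPMI-1640 with fetal calf serum, with medium changed and cells split on days 3 and 5. The series asked how expression changes overall under a DNA methyltransferase inhibitor, and its description reports no obvious toxicity of the treatment in an XTT viability assay. The cultures are labelled as biological replicates of 1 cell line, so p-values measure the spread between cultures of that line.

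Methylation of cytosines in CG pairs near a gene's start is a common way in which tumour cells keep a gene off, and DNMT1 copies the marks to the new strand each time the DNA is replicated. Zebularine is a cytidine analogue that is built into DNA and traps DNA methyltransferases there, so that marks are lost as cells divide. In kidney tumours, genes that restrain growth, promote cell death or hold cells together have been reported as methylated. The list was compiled from tumours, DNA methylation itself was not analysed here, and the state of these promoters in A-498 is not known from the values used.

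The CG pairs that the enzymes act on are shown for 6 members, in the 250 bases before a RefSeq start on GRCh38.p14, with CG in capitals and all other bases in lower case. Where RefSeq lists several starts, the window with the most CG pairs is given. PCDH8, FAM107A and PTGS1 were the only members with a silent probe set that differed in 1 direction in all replicates. For PTGS1 this held for only 1 of its probe sets. FLCN, DAPK1 and UCHL1 are shown because their values are described most fully below, a choice made after these were seen. The windows are chr13:52848641-52848890 (minus strand), chr3:58587015-58587264 (minus strand), chr9:122375052-122375301 (plus strand), chr17:17237169-17237418 (minus strand), chr9:87497617-87497866 (plus strand) and chr4:41256678-41256927 (plus strand).
PCDH8: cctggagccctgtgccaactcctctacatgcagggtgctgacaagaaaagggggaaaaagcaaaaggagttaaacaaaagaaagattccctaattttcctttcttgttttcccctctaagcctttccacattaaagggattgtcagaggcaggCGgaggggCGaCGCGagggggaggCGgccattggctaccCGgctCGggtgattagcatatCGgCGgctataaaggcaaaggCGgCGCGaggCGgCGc
FAM107A: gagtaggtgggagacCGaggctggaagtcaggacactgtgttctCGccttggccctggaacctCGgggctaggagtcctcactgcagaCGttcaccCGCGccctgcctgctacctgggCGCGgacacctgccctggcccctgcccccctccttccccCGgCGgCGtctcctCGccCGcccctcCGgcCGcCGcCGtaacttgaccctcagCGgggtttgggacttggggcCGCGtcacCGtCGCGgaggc
PTGS1: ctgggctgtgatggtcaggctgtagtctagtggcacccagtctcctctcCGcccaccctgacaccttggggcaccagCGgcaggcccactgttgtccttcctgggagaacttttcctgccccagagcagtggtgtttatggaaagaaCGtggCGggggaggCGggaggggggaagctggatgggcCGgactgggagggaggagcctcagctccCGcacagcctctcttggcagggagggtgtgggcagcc
FLCN: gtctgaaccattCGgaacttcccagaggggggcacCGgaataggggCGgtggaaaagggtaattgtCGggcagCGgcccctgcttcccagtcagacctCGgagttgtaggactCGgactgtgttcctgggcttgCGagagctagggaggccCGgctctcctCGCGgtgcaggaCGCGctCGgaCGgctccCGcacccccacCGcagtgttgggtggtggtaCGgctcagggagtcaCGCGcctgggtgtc
DAPK1: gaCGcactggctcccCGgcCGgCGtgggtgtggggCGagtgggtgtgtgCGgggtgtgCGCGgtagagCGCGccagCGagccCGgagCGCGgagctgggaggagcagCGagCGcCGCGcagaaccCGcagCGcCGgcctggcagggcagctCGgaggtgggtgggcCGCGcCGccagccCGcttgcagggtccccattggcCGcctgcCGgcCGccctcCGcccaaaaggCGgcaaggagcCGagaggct
UCHL1: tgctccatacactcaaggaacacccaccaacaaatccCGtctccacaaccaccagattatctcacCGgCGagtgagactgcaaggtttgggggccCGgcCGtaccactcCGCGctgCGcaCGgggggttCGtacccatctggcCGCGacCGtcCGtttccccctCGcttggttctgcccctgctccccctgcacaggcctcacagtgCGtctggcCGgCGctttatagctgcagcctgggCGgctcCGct

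PCDH8 has 14 CG pairs in its window, FAM107A 23, PTGS1 7, FLCN 20, DAPK1 32 and UCHL1 20. CG reads the same on both strands, so each pair was counted once. Of 25 members with an entry, 21 have at least 10 CG pairs and 14 at least 20, while 79.7% and 55.6% of 9563 array genes with an entry do. The median was 20 CG pairs in members and 21 in those array genes.

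Arrays were scaled alike: their median signals ran from 117.9 to 140.7 units. Both arrays of replicate 3 had lower maxima, at 31176.4 and 27499.7 against 58719.2 to 62831.6 on the other 4, while the 90th percentile was 1575.9 to 1599.7 there and 1526.5 to 1551 on the others. Of 14 renal carcinoma and tubule markers on the array, 9 reached 78.6 on all 6 arrays and 0 on none, among them PAX8, VIM and KRT18. The summed signal of this list ran from 118968.5 to 186097.8 in untreated and from 96379 to 166697.4 in treated cultures. Of its 29 expressed probe sets, which measure 10 genes, 14 were lower in all replicates. That is 48.3%, against 24.6% of all expressed probe sets. CDH6, a cadherin of the proximal tubule, fell by 2.85 on the log2 scale (adjusted p from limma = 0.0206). Of 8 leukocyte, 5 endothelial and 6 fibroblast markers, 0, 0 and 1 reached 78.6 on all 6 arrays. The last was COL1A1, which stromal and some tumour cells make. Of the 8 leukocyte genes 5 reached 78.6 on no array, PTPRC among them. ITGAM reached it on 5 arrays with 1 of its probe sets, CSF1R on 2 and CD3D on 1. The summed signal of the leukocyte list ran from 347.7 to 442.5 in untreated and from 439.3 to 597.1 in treated cultures, of the endothelial list from 306.6 to 352.7 and from 281 to 459, and of the fibroblast list from 648.5 to 976.2 and from 844.5 to 1283; their part in the results was not tested.

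No member gene passed the test in either direction, and no silent member came up on all treated arrays. Here a probe set is called silent if its signal was under 78.6, the 40th percentile of all values, on all 3 untreated arrays, and expressed if it reached 78.6 on all 3. Of the 44 member probe sets 24 were silent, 13 expressed and 7 in between. Of 30 genes, 15 had only silent probe sets and 8 only expressed ones. Of the 24 silent probe sets 0 reached 78.6 on all 3 treated arrays, which 1.23% of all 5630 silent probe sets on the array did. Of the 13 expressed probe sets 0 were below 78.6 on all 3 treated arrays, as were 0.496% of 10084. At these background rates fewer than 1 member would be counted in either direction, so the counts of 0 are near the background.

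**Figure D1:**
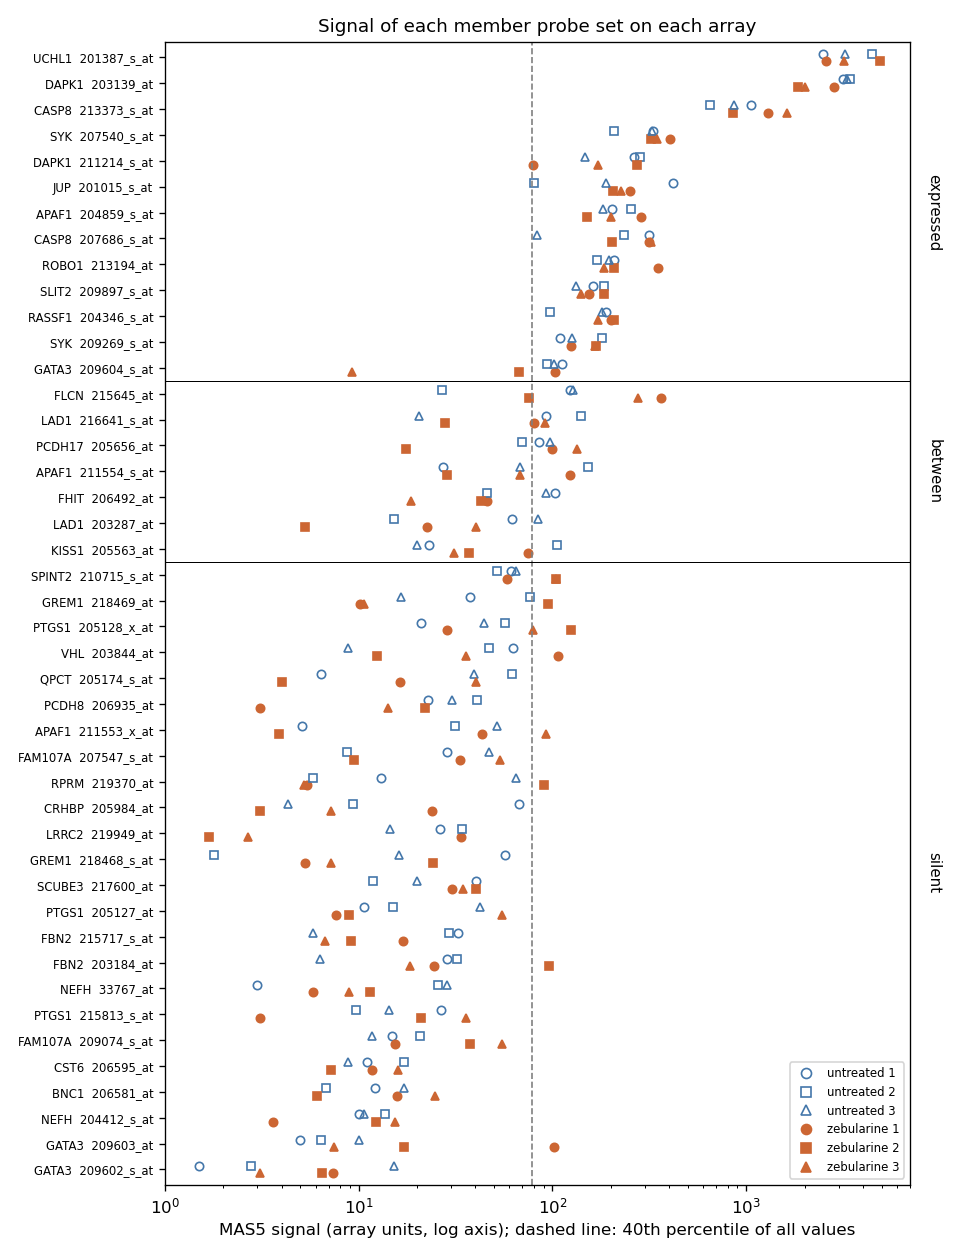
MAS5 signal (array units, log axis) of the 44 member probe sets on each of 6 arrays; open blue symbols are untreated and filled orange symbols zebularine cultures, with 1 symbol shape per replicate number, and the dashed line marks 78.6. Of the 24 silent probe sets at the bottom, 8 have a treated value at or above the line and 0 have all 3.

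Of the 44 probe sets, 16 for 13 genes were bright enough to test. limma called 0 of them higher and 0 lower, where it called 0.325% of all 13545 tested probe sets higher and 0.295% lower. With the replicate number as a block it again called 0 and 0, against 1.9% and 2.32% of all. At an unadjusted p under 0.05 there was 1 member probe set without the block, against 12.6% of all tested ones, and 3 with it, against 20.7%. With no filter, all 44 were fitted and 0 were called with or without the block, against 1.78% and 0.189% of all 22215. The median log2 difference of the 13 tested genes was 0.055, and that of all 7938 tested genes was -0.009. By replicate the median of the 13 genes was 0.079, 0.144 and 0.079.

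A missed threshold does not show that the members did not change, so the intervals are given. The 95% intervals of the 16 tested probe sets reached from 0.53 to 1.455 to either side of the difference. For 5 of them the interval lay within a doubling or halving (a log2 difference of 1 either way). For 8 it still reached a rise of 1 and for 5 a fall of 1.

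**Figure D2:**
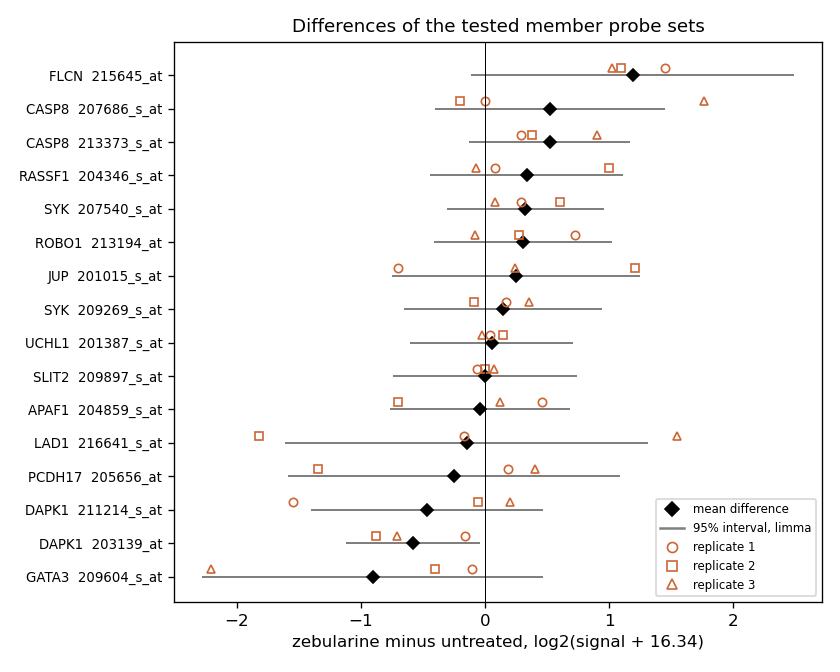
Difference of zebularine minus untreated on the log2 scale for the 16 tested member probe sets; diamonds are means, grey lines 95% intervals from limma and open symbols the 3 replicates. Only the interval of DAPK1 203139_at leaves out 0, from -1.11 to -0.05, and its adjusted p is 0.357.

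Of the 44 probe sets, 6 were higher on the treated array in all 3 replicates, and 5 were lower. That is 13.6% and 11.4%, against 19.5% and 17.1% of all probe sets with 1 symbol. Those higher were FLCN, CASP8 213373_s_at, SYK 207540_s_at, both probe sets of FAM107A and PTGS1 205128_x_at. Those lower were DAPK1 203139_at, GATA3 209604_s_at, LAD1 203287_at, FHIT and PCDH8. Among the 13 expressed probe sets 2 were higher and 2 lower (15.4% each), against 20.4% and 24.6% of all expressed ones.

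FLCN encodes folliculin, the tumour suppressor lost in Birt-Hogg-Dubé syndrome, which acts in nutrient signalling at the lysosome. Its only probe set was at 122.7, 26.9 and 127.3 in untreated replicates 1, 2 and 3, and at 363.8, 75.9 and 275 in the treated ones. Each treated array was above its own untreated array by more than a doubling, while the groups overlapped because both arrays of replicate 2 were dim. The means were 92.3 ± 56.7 and 238 ± 147 (SD, n = 3). The log2 difference was 1.19 ± 0.60 (standard error; adjusted p from limma = 0.438 unblocked and 0.0873 blocked, 95% interval -0.10 to 2.48). The replicates differed by 1.45, 1.09 and 1.02. FLCN was the 1 member with at least 0.5 more in every replicate, as were 3.68% of all probe sets with 1 symbol. The call depended on replicate 2: with the block and without that replicate, the difference was 1.24 and passed the test (limma, adjusted p = 0.0377). The share of all probe sets called in that fit is not given, so this pass cannot be set beside the background. Without untreated replicate 2 and without the block the FLCN difference was 0.62, and without zebularine replicate 2 it was 1.805.

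VHL, the other suppressor of inherited kidney cancer, encodes the part of a ubiquitin ligase that recognises hypoxia-inducible factors. Its probe set gave 62.8, 47.3 and 8.8 in untreated and 107.3, 12.4 and 36 in treated cultures. It was silent by the rule before treatment, and 1 treated array reached 78.6. The replicates differed by 0.64, -1.15 and 1.06 on the log2 scale, so they did not share a direction, and the probe set was too dim to test.

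**Figure D3:**
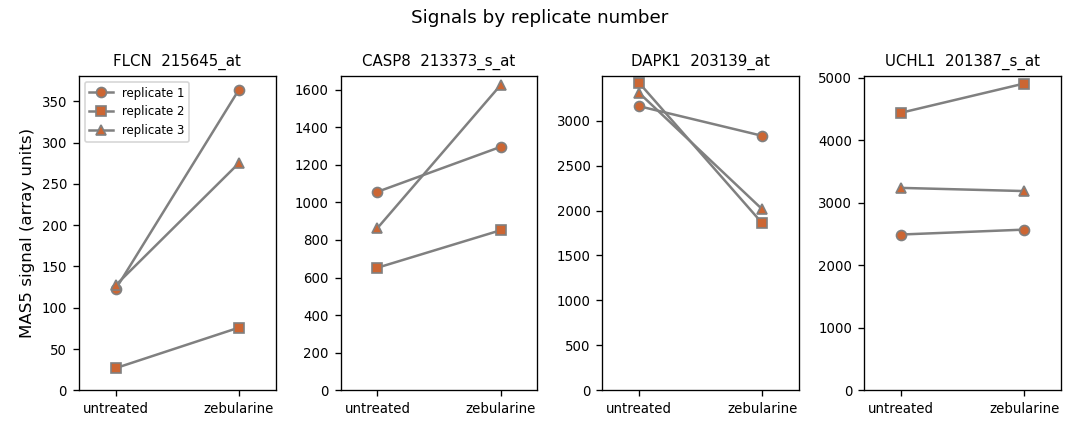
MAS5 signal (array units, axes from 0) of FLCN, CASP8, DAPK1 and UCHL1 by replicate number, each line joining the untreated and treated array of 1 replicate. FLCN and CASP8 have 3 rising lines, DAPK1 has 3 falling ones, and the UCHL1 lines are nearly level, with differences of 0.04, 0.14 and -0.02; none of the 4 passed the test.

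Genes of cell death and growth control made up 6 members with 10 probe sets, of which 6 were expressed and tested. DAPK1, a calmodulin-dependent kinase that promotes cell death, gave 3160.5, 3418.8 and 3307.4 in untreated cultures and 2831.2, 1857.7 and 2013.1 in treated ones. Every treated value was below every untreated value. The difference was -0.58 ± 0.245 (adjusted p from limma = 0.357 unblocked and 0.116 blocked), and 0 alternatives called it. A second DAPK1 probe set, 211214_s_at, went from 264.5, 284.2 and 147.9 to 79.8, 272.6 and 172.1, with replicate differences of -1.55, -0.06 and 0.20, so the 2 probe sets shared a direction in replicates 1 and 2 but not in replicate 3. Without zebularine replicate 1 its difference was -0.04.

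CASP8, the initiator caspase of death receptors, was measured by 2 expressed probe sets. The brighter, 213373_s_at, gave 1056.1, 652.3 and 863.3 in untreated and 1295, 851.5 and 1623.5 in treated cultures. It was higher in each replicate, with overlapping groups, at a difference of 0.52 ± 0.30 (limma, adjusted p = 0.502, 95% interval -0.12 to 1.16; adjusted p = 0.199 with the block). The other, 207686_s_at, had the same mean difference of 0.52, but 1.77 came from replicate 3 alone, against 0.00 and -0.20 in replicates 1 and 2.

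APAF1, which builds the caspase-activating apoptosome, had a brightest probe set at 203.6, 254.6 and 183.1 in untreated and 286.5, 150.3 and 200.4 in treated cultures. The replicates went both ways and the mean difference was -0.04 ± 0.33 (limma, adjusted p = 0.977). Its other probe sets, 211554_s_at and 211553_x_at, were dim and also moved in opposite directions in replicates 1 and 2. The probe set of RASSF1, a scaffold of the Hippo kinases, gave 188.7, 96.6 and 181.1 in untreated and 200.2, 208.8 and 171.8 in treated cultures. Only replicate 2 differed by more than 0.1, at 0.995, and the mean difference was 0.335 ± 0.355 (limma, adjusted p = 0.744). RASSF1 makes several transcripts from separate starts, the one reported as methylated being RASSF1A, and the probe set's value cannot be assigned to that transcript here. Its CG pairs were counted before the 1 start listed for it, and whether that is the RASSF1A start was not checked.

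FHIT, a diadenosine hydrolase at a fragile site, and RPRM, a p53-induced inhibitor of the G2 to M transition, were too dim to test. FHIT was lower in all replicates, from 102.6, 45.7 and 93.1 to 45.9, 42.8 and 18.6, with 2 of 3 untreated arrays and 0 treated arrays at the level. RPRM gave 13, 5.8 and 65.1 in untreated and 5.4, 90.8 and 5.2 in treated cultures. Its 1 high treated value and its 1 high untreated value lay in different replicates.

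Adhesion, junction and cytoskeletal genes made up 7 members with 10 probe sets, 3 of them tested. JUP, which encodes plakoglobin of desmosomes and adherens junctions, was the 1 expressed gene among them. It gave 419.1, 80 and 188 in untreated and 252.1, 205.9 and 225.2 in treated cultures. The untreated values spanned the treated ones, with means of 229 ± 173 and 228 ± 23.2, and a log2 difference of 0.25 ± 0.46 (limma, adjusted p = 0.865). LAD1, an anchoring filament protein of the basement membrane, had 2 probe sets in between: 216641_s_at differed by -0.17, -1.82 and 1.55, while 203287_at went from 62.2, 15.3 and 83.9 to 22.5, 5.3 and 40.2.

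PCDH17 and PCDH8 encode protocadherins, adhesion proteins best known from the nervous system. PCDH17 lay close to the level, at 85.2, 69.5 and 97 before and 99.1, 17.5 and 133.3 after treatment (adjusted p from limma = 0.901). PCDH8, with its 14 CG pairs printed above, was silent and was lower still on the treated arrays, at 3.1, 22 and 14.1 after 22.7, 40.7 and 30.3. Values this dim have little meaning as an order. FAM107A, an actin-binding protein lost in renal carcinoma, was higher in all replicates with both probe sets and under the level on all 6 arrays with both. Its probe set 209074_s_at went from 14.9, 20.7 and 11.7 to 15.4, 37.4 and 54.8, a difference of 0.023 in replicate 1. The other, 207547_s_at, differed by only 0.156, 0.045 and 0.141, so the shared direction at these dim values has little meaning. The neurofilament gene NEFH had 2 probe sets, with signals from 3 to 28.6, and the leucine-rich repeat gene LRRC2 gave 1.7 to 34.1; neither gene reached the level on any array.

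Protease inhibitors and enzymes made up 5 members with 7 probe sets, of which the 1 of UCHL1 was expressed. UCHL1, a deubiquitinating enzyme of neurons that is reported as methylated in renal carcinoma, was plainly present before treatment. It gave 2490.5, 4436.8 and 3236 in untreated and 2568.8, 4903.8 and 3185.3 in treated cultures. Untreated replicates lay further from one another than from their own treated arrays, and the difference was 0.06 ± 0.30 (limma, adjusted p = 0.965, 95% interval -0.59 to 0.70; -0.31 to 0.42 with the block).

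SPINT2, which inhibits the protease that activates hepatocyte growth factor, was silent by a small margin. It gave 60.8, 51.7 and 64.8 in untreated and 58.4, 104.2 and 104.3 in treated cultures, and so reached the level on 2 treated arrays. PTGS1, the constitutive cyclooxygenase, did so with 1 of its 3 probe sets: 205128_x_at, of a type that can bind related transcripts, went from 21.1, 57 and 44.4 to 28.4, 124.8 and 79.2, the last just above 78.6. Its other probe sets stayed between 3.1 and 55. CST6, a cystatin that inhibits lysosomal proteases, ran from 7.2 to 17.2 over all arrays, and QPCT, the glutaminyl cyclase, from 4 to 62.2.

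Secreted ligands, antagonists and matrix genes had 6 members on the array with 8 probe sets, 6 of them silent. SLIT2, a guidance ligand of ROBO receptors, was the 1 expressed and tested. It gave 162, 184.9 and 132.8 in untreated and 154, 185.1 and 140.6 in treated cultures. Each replicate kept its own level, with differences of -0.07, 0.00 and 0.07 and a mean of 0.00 ± 0.34 (limma, adjusted p = 0.998, 95% interval -0.73 to 0.74).

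GREM1, a secreted BMP antagonist, had 2 silent probe sets. Its probe set 218469_at gave 37.4, 76.5 and 16.6 in untreated and 10.2, 94.9 and 10.6 in treated cultures, with replicate 2 the highest in both groups, and 218468_s_at ran from 1.8 to 56.9. FBN2, fibrillin of developing elastic fibres, had 203184_at at 28.4, 32.1 and 6.3 before and 24.6, 96 and 18.3 after treatment, while 215717_s_at differed by -0.56, -0.85 and 0.06. CRHBP, which binds corticotropin-releasing hormone, ran from 3.1 to 67.4 and SCUBE3, a secreted EGF-domain protein, from 11.8 to 40.2. KISS1, the source of kisspeptins, reached the level on untreated replicate 2 alone, at 105.3 against 37.3 on its treated array.

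The receptor and kinase members were both expressed. ROBO1, the SLIT receptor, gave 206.5, 170.3 and 194.7 in untreated and 350.9, 208.8 and 183.8 in treated cultures. Treated replicate 1 stood above the rest and the groups overlapped (difference 0.305 ± 0.33; limma, adjusted p = 0.747). SYK, a kinase of immune receptors that some epithelial cells also express, had 207540_s_at at 328.2, 207 and 326.8 in untreated and 405.4, 322.4 and 346.1 in treated cultures. It was higher in each replicate, by 0.29, 0.60 and 0.08 (limma, adjusted p = 0.691, 95% interval -0.30 to 0.95). Its second probe set, 209269_s_at, differed by 0.17, -0.09 and 0.36.

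Among transcription factors, BNC1, a basonuclin of the epidermis and germ cells, ran from 6.1 to 24.7 over all arrays, although its window holds 39 CG pairs. GATA3, a factor of the distal nephron and of T cells, had 3 probe sets that disagreed. The expressed one, 209604_s_at, went from 111.5, 93.7 and 101.7 to 102.5, 66.9 and 9.2. It was lower in each replicate, with -2.21 in replicate 3 against -0.105 and -0.40 in the others, and did not pass (limma, adjusted p = 0.593). Of the silent ones, 209603_at reached 102.4 on treated replicate 1 after 5 on its untreated array, while treated replicates 2 and 3 gave 17.1 and 7.5, and 209602_s_at ran from 1.5 to 15.3. The high value thus stood on 1 array and in 1 of 3 probe sets.

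The silent members as a group can be set beside all silent probe sets. Choosing probe sets for low untreated values by itself favours higher treated ones, so only the comparison is informative. Of 24 silent member probe sets, 8 (33.3%) reached 78.6 on at least 1 treated array, against 23.7% of all 5630 silent ones, and 2 on at least 2, against 6.04%. The 2 were SPINT2 and PTGS1 205128_x_at. The other 6 were VHL and GATA3 209603_at in replicate 1, RPRM, GREM1 218469_at and FBN2 203184_at in replicate 2, and APAF1 211553_x_at in replicate 3. The highest of all these treated values was 124.8. Of the 72 treated values 13.9% were at or above 78.6, against 10.3% of 16890. Of the 24, 3 were higher in all replicates, which is 12.5% against 21.7%, and 1 was lower, which is 4.17% against 7.09%. The median log2 difference was -0.02, where that of all silent probe sets was 0.17; by replicate the medians were -0.01, 0.00 and 0.21, against 0.07, 0.09 and 0.27.

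**Figure D4:**
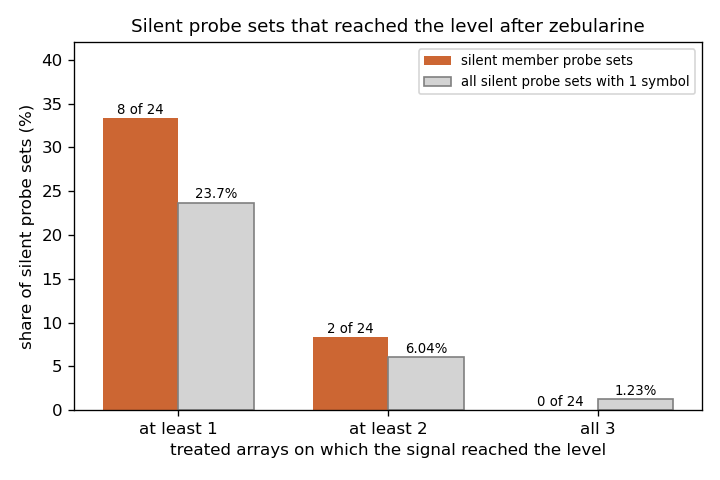
Share (%) of silent probe sets whose signal reached 78.6 on at least 1, at least 2 and all 3 treated arrays, for the 24 member probe sets (orange) and for all 5630 silent probe sets with 1 symbol (grey). The member counts are 8, 2 and 0 of 24, and the shares of all silent probe sets are 23.7%, 6.04% and 1.23%.

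Cancer-testis genes, germline genes that are held off by methylation in most somatic cells, were compared by the same rule. Of 37 probe sets for 30 such genes 31 were silent. Of these, 0 reached 78.6 on all treated arrays and 3 on at least 1, against 1.23% and 23.7% of all silent probe sets. Of the silent ones 25.8% were higher in all replicates, against 21.7% of all silent probe sets. Their median difference was 0.16, against 0.17. Metallothioneins bind zinc and copper. Of their 13 probe sets 8 were expressed, and 87.5% of these were higher in all replicates, against 20.4% of all expressed probe sets. limma called 3 of 6 tested metallothionein genes higher, where it called 0.63% of all tested genes in either direction and 0 of 13 tested members. Their 3 silent probe sets had a median difference of -0.63, with 1 higher and 1 lower in all replicates. Each tested metallothionein gene was measured by a probe set of the type that can bind related transcripts, so these probe sets may share signal. The lists were chosen with earlier results of these data known, so the metallothionein calls are no independent contrast to the members. The difference between these lists was not tested.

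The 6 members on chromosome 3 lie on its short arm, which most clear cell renal carcinomas lose on 1 copy. They are VHL, RASSF1, FHIT, LRRC2, FAM107A and ROBO1. Of these, RASSF1 and ROBO1 were expressed, FHIT was in between and VHL, LRRC2 and FAM107A were silent in untreated A-498. Only RASSF1 and ROBO1 were bright enough to test, and neither was called.

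CG pairs before the start were set beside the members' classes. The 10 members with only silent probe sets and an entry had 7 to 39 CG pairs, with a median of 18.5, and the 8 expressed ones 6 to 32, with a median of 22.5. Over the array, genes with only silent probe sets had a median of 11 CG pairs and genes with only expressed ones 23. BNC1, GREM1, RPRM and FBN2, with 39, 32, 26 and 25 CG pairs, had values under 78.6 on nearly all arrays, while DAPK1, SYK and SLIT2, with 32, 32 and 30, were expressed before treatment. APAF1, with 38, and GATA3, with 30, had probe sets of more than 1 class, and those of LAD1, with 34, were in between.

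**Figure D5:**
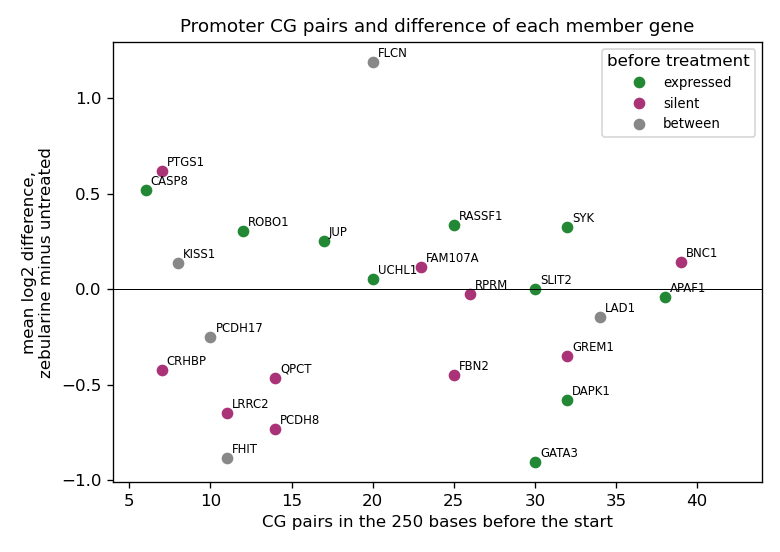
Number of CG pairs in the 250 bases before the start (x axis) and mean log2 difference of zebularine minus untreated (y axis) for the 25 members with a promoter entry, each by its probe set with the highest untreated mean, coloured by that probe set's class before treatment. FLCN, with 20 CG pairs, stands highest at 1.19, and genes with 30 or more CG pairs lie on both sides of 0.

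Partners of the members in the same pathways were followed in 8 lists of 92 names, of which 78 were on the array and 57 were tested. limma called 0 of the 57, against 0.63% of all 7938 tested genes. With the replicate block it called 3 higher and 3 lower, against 2.14% and 2.25% of all. These calls depended on the replicates: the blocked fit called 1 partner gene without replicate 1, 7 without replicate 2 and 4 without replicate 3. The shares of all tested genes called in those fits are not given, so these counts are not read as a result about partners. The median difference over the 57 was 0.09. The 6 genes were named after their values were seen. FAS, a death receptor that activates CASP8, gave 1327.7, 911.8 and 1115 without zebularine and 2687.4, 2200.8 and 2156.6 with it. Every treated value was above every untreated one, at a difference of 1.07 ± 0.25 (adjusted p from limma = 0.0804 unblocked and 0.0121 blocked). In that list of caspases, death receptors and apoptosome genes, 13 of 23 expressed probe sets of 9 genes were higher in all replicates and 0 lower. The share higher was 56.5%, while 20.4% of all expressed probe sets were higher and 24.6% lower. The list's median difference over 10 tested genes was 0.22. The list is described at this length after the values of FAS were seen. Several of these probe sets measure the same gene, and the list's difference from the rest was not tested.

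DSG2, a desmosomal cadherin that JUP links to keratin, differed by 0.84 ± 0.31 (adjusted p from limma = 0.282 unblocked and 0.0212 blocked). PKP3, a desmosomal plaque protein, differed by -0.998 ± 0.30 (adjusted p from limma = 0.198 unblocked and 0.0303 blocked). The standard errors given for partner genes are those of the unblocked fit. With the block, the 2 junction genes thus moved in opposite directions. CTSL, a lysosomal protease of the kind CST6 inhibits, averaged 4180 ± 935 (SD) without zebularine and 7098 ± 568 with it (adjusted p from limma = 0.209 unblocked and 0.0211 blocked). ID1 and ID3, transcription regulators induced by the BMPs that GREM1 binds, differed by -0.80 ± 0.33 and -1.69 ± 0.56. Their adjusted p from limma was 0.337 and 0.239 unblocked, and 0.0396 and 0.0193 blocked. ID3 gave 758.9, 4973 and 2015.9 in untreated and 327.1, 590.4 and 1100.1 in treated cultures, so the groups overlapped and replicate 2 had the widest gap.

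In the other lists no gene passed either fit. The VHL and FLCN list had 8 tested genes with a median difference of 0.22, its brightest being the elongin genes ELOB at 0.33 ± 0.265 and ELOC at 0.45 ± 0.26 (limma, adjusted p = 0.648 and 0.51). The RASSF1 list had 7 with a median of -0.085, with the Hippo kinase gene STK3 at -0.47 ± 0.25 and its cofactor MOB1A at -0.085 ± 0.23. The SLIT and ROBO list had 2, GPC1 and ROBO3, at 0.04 and 0.39, and the fibrillin list 7 with a median of 0.23, with EFEMP1 at -0.72 ± 0.29 and FBLN1 at 0.35 ± 0.28.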

How the data were processed

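RNA from 6 A-498 cultures, 3 untreated and 3 treated with zebularine, was hybridised to 1 Affymetrix array each, per the labels' protocols. Values came as deposited: intensities on a linear scale, 1 per probe set, which the authors made with MAS5, per the submitters' processing notes. The sources used here do not name its version or settings. The method removes background and mismatch signal and brings arrays to a common scale. Its detection calls were not used, and low signals are noisy. Groups and replicate numbers came from the sample titles.

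Values were taken as log2(signal + 16.34), the pseudocount being the median of all values divided by 8, so changes of dim genes are understated. Signals of 78.6 or more, the 40th percentile over the whole table, were required on 3 or more of the 6 arrays. That kept 13545 of 22215 probe sets, 62 controls being left out. Names came from the platform annotation, which gave 19064 probe sets 1 symbol; of these, 19052 were matched by Entrez number to RefSeq, and 0 names changed. The groups were compared two-sided in limma 3.58.1 (R 4.3.3), with eBayes allowing a trend of variance with mean. P-values were adjusted by Benjamini-Hochberg over every probe set tested, a call needed an adjusted p under 0.05, and intervals are 95% intervals from this fit. The fit was tested on simulated data. Plots used matplotlib 3.10.9 under Python 3.11.15.

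The labels give both arrays of a number the same experiment name. Across tested probe sets, the 2 arrays of a number deviated together, with correlations of 0.323, 0.21 and 0.272 for replicates 1, 2 and 3, so the numbers were taken to pair the arrays, and a fit with the replicate number as a block was run beside the unblocked fit.

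The members and lists were chosen with earlier results of these data known. By the naming rule, every member is named. Arrays are listed one by one for members that were called, that differed by at least 1 on the log2 scale in 1 direction in all replicates, or whose brightest probe set reached 78.6 on all 6 arrays, and for VHL. The arrays of other members (among them FHIT, RPRM, LAD1, PCDH17, PCDH8, FAM107A, SPINT2, PTGS1, GREM1, FBN2 and GATA3) are listed beyond this rule, chosen after their values were seen. Of partner lists, called genes or else the 2 brightest are named. Of the printed promoters, 3 are those of the silent members with the largest differences of 1 sign, and no other silent member had such differences. The other promoters and partner genes were chosen after their values were seen. Alternatives covered the pseudocount, the filter, quantile normalization, the trend, the block, the level for silence, and single arrays or replicates left out.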

Additional observations from a re-analysis of the deposited data

How the results depend on the processing

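Single probe sets were refitted under 17 alternatives, giving 268 values. Of these 249 kept the direction and stayed uncalled, 18 turned the direction, all after leaving out arrays, and 1 passed the test (FLCN, 1.24, with the replicate block and without replicate 2, which made the count of members called higher 1; it was 0 under the other alternatives, and the count called lower was 0 under all, the replicate block included). Over the values that left out arrays, JUP ran from -0.29 to 0.79, LAD1 216641_s_at from -0.996 to 0.69, PCDH17 from -0.67 to 0.40, APAF1 from -0.29 to 0.29, CASP8 207686_s_at from -0.10 to 0.88, DAPK1 211214_s_at from -0.84 to 0.07, UCHL1 from -0.20 to 0.27 and SLIT2 from -0.11 to 0.10. Within these, the blocked fits with a replicate left out gave -0.23 for JUP, 0.071 for DAPK1 211214_s_at and -0.032 for SLIT2, and the single arrays left out gave -0.75 for LAD1 216641_s_at and -0.26 and 0.17 for APAF1. Some values kept their sign but moved by over 1.5 times, among them the following. Without zebularine replicate 3, GATA3 209604_s_at stood at -0.25 and CASP8 213373_s_at at 0.315. ROBO1 stood at 0.041 without zebularine replicate 1. Without untreated replicate 2, RASSF1 and SYK 207540_s_at stood at 0.057 and 0.12. SYK 209269_s_at stood at 0.007 without untreated replicate 1. A pseudocount of the median divided by 2 gave -0.50 for GATA3 209604_s_at, -0.095 for PCDH17 and 0.16 for JUP. The main fit gave -0.91, -0.25 and 0.25 for these. The median of tested member genes was 0.25 for the 9 genes at the level on all 6 arrays and ran from 0.024 to 0.28 with arrays left out, with 0.185 and 0.094 in the blocked fits without replicates 2 and 3. Of the 16 member probe sets that passed the filter, 3 were higher in all replicates and 2 lower, against 21.1% and 21.6% of all. Of the 44, 1 was higher and 2 were lower by at least 0.5 in each replicate, against 3.68% and 3.07% of all. With 1 replicate left out, the remaining replicates gave 11 to 17 higher and 7 to 11 lower, a count that is larger by construction. The shares of all probe sets are not given for these counts, so they are not read as a trend of the members. With 2 of 3 treated arrays in place of all, 2 silent probe sets reached the level and 1 expressed one (GATA3) fell below it. Of all silent and all expressed probe sets, 6.04% and 2.12% did. With 1 replicate left out these member counts ran from 0 to 2 and from 0 to 1, against shares of 3.49% to 4.59% and 1.4% to 2.35%. With the level at the 25th percentile, 8 member probe sets were silent and 16 expressed. Of these, 0 and 0 crossed it on all treated arrays, against 3.93% and 0.453% of all. At the 50th percentile 30 were silent and 8 expressed, again with 0 and 0, against 0.7% and 0.735%. Which members count as silent thus depends on the level. Partner genes called numbered 6 with the replicate block and 6 with the block and no filter, and 1, 7 and 4 with the block and without replicates 1, 2 and 3. For the blocked fits without 1 replicate, the share of all probe sets called is not given, either for FLCN or for the partners. The fits that joined the block with no filter, the counts without 1 replicate and the alternatives for partner genes were added after the data were seen. Of the 30 genes 17 were too dim to test, so these arrays give little information on a change there.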
